A study of Mus musculus with 32 samples.

Results

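Aminoacyl-tRNA synthetases are the enzymes that join each amino acid to its transfer RNA. All genes whose platform symbol has the form of a synthetase name (Eprs, or 1 amino acid letter followed by "ars" and an optional suffix) were taken as members, without regard to their values. The rule found 36 genes, 35 of the 22180 genes measured at 48 h and 33 of the 17097 measured at 72 h, and 32 were on both array types. By their symbols 20 members encode cytosolic enzymes and 16, with names ending in 2, mitochondrial ones. Tarsl2, a cytosolic paralog of the threonine enzyme, was counted as cytosolic, as were Kars, Gars and Qars, although the products of the lysine and glycine genes also serve mitochondria and the glutamine enzyme contributes there. Cars, Tars and Yars2 were measured at 48 h only. Aars was measured at 72 h only, because its 48 h probe set also names another gene.

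The CD4+ T cells came from lymph nodes (axial and cervical) of Balb/c mice that are DO11.10 TCR transgenic, so that their receptor recognises an ovalbumin (OVA) peptide. All cultures held thioglycollate-elicited peritoneal macrophages as antigen-presenting cells, and viable CD4+ singlets were sorted before RNA extraction with Trizol. At 48 h, 23 MoGene-2_0-st arrays covered OVA in full medium (n = 3), OVA in full medium on macrophages pretreated with IL-4 and IL-10 at 10 ng/mL each and washed (n = 3), and OVA in medium holding 1% of the arginine, the leucine or the lysine of RPMI (n = 3 each). The RPMI-SILAC-based 1% media were also used without OVA (n = 2 for arginine, n = 3 for leucine and lysine). At 72 h, 9 HT_MG-430_PM arrays covered no OVA, OVA, and OVA on pretreated macrophages, all in full medium (n = 3 each). Full medium without OVA was not analysed at 48 h, so the effect of antigen at 48 h was read within each low medium only. The pretreatment is described in the labels as a means to induce arginase-1, an enzyme that consumes arginine. The labels do not say if replicates came from different cultures or mice, and the p-values therefore cover only the spread among these arrays, which may be technical.

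The cytosolic enzymes charge the transfer RNAs used by cytoplasmic ribosomes, and several of them sit in a multi-enzyme complex held together by Aimp scaffold proteins. The mitochondrial enzymes are encoded in the nucleus and charge the transfer RNAs used to translate the few proteins of the mitochondrial genome. When an amino acid is scarce, uncharged transfer RNA activates the kinase GCN2, which raises translation of the transcription factor ATF4, and many cytosolic synthetase genes are known ATF4 targets. Activated T cells grow and divide, which requires protein synthesis in both compartments.

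The plot of compartment means by array shows that the cytosolic members stood far above their no-antigen level in every culture with OVA. Their mean log2 level was 7.62 ± 0.10 (SD, n = 2), 7.66 ± 0.14 (n = 3) and 7.50 ± 0.13 (n = 3) without antigen in low arginine, leucine and lysine medium. With antigen it was 9.31 ± 0.08, 9.46 ± 0.06 and 9.26 ± 0.21 in the same media (n = 3 each), against 9.29 ± 0.03 in full medium. The mitochondrial mean moved less, from 6.55 ± 0.03, 6.57 ± 0.14 and 6.54 ± 0.07 without antigen to 6.90 ± 0.08, 7.06 ± 0.06 and 6.92 ± 0.10 with antigen. In full medium with antigen it was 7.17 ± 0.06, and on pretreated macrophages 6.85 ± 0.09. These are means of log2 probe set values, so they describe a group of arrays and do not rank one compartment's abundance against the other.

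**Figure D1:**
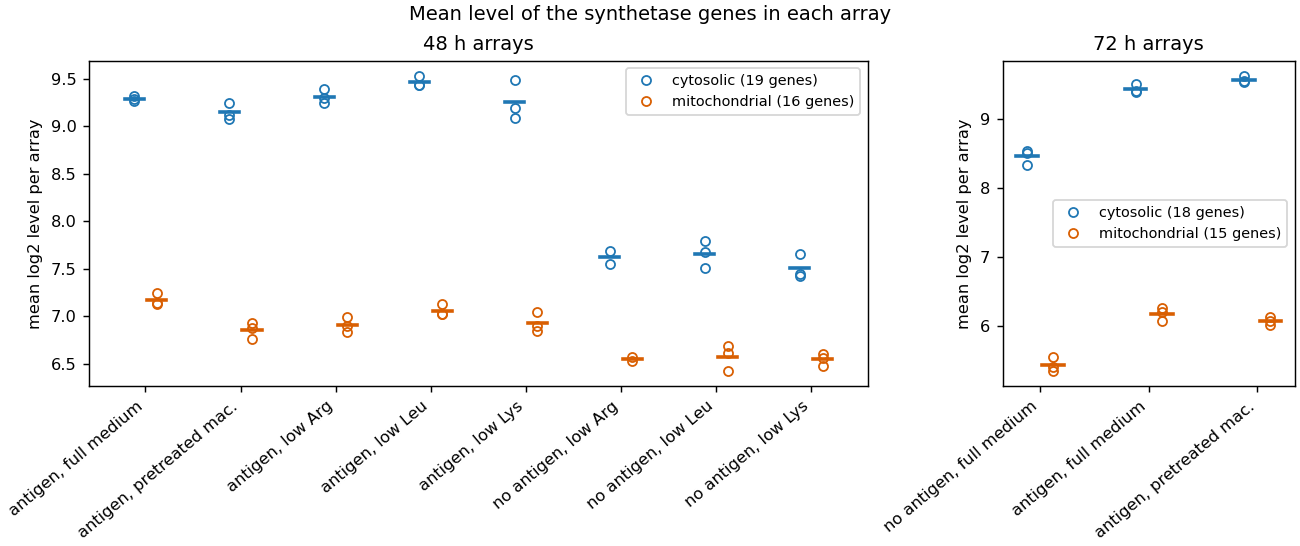
Mean log2 level of the cytosolic (blue) and mitochondrial (orange) synthetases on each array, by group, at 48 h and 72 h. Circles are arrays, bars are group means, and the panels have their own scales. The cytosolic group means at 48 h lay between 7.50 and 7.66 without antigen and at 9.14 or above with it, and the mitochondrial group mean was highest in full medium with antigen, at 7.17.

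Antigen raised nearly all cytosolic synthetases in each low medium. A gene was called changed at an adjusted p below 0.05 in limma's moderated test, with Benjamini-Hochberg adjustment over all genes of the array type. In low arginine 18 of 19 cytosolic members were called higher, with a median log2 fold change of 1.75, and 7 of 16 mitochondrial members, with a median of 0.46. Among all genes 17.2% were called higher and 12.2% lower, and the median gene changed by -0.12. In low leucine the counts were 18 of 19 (median 1.85) and 9 of 16 (median 0.48), against 21.8% of all genes higher and 19.5% lower. In low lysine they were 18 of 19 (median 1.77) and 6 of 16 (median 0.33), against 18.4% higher and 12.6% lower. The cytosolic member that was not called was Tarsl2 in all 3 media, at 0.31, 0.53 and 0.49. No member was called lower in these comparisons. The cytosolic counts held at 17 or more in every alternative run, and the mitochondrial ones did not. In low arginine the 7 mitochondrial calls went to 2 without either of the no-antigen arrays and to 3 without antigen replicate 3, and quantile normalization left 2 (Lars2 and Nars2). Another 48 h probe set of Nars2, slightly dimmer (6.39 against 6.56), moved the other way with antigen. It changed by -0.38, -0.35 and -0.10 in low arginine, leucine and lysine, against 0.57, 0.47 and 0.39 on the one used. In low leucine quantile normalization left 5 of the 9 (Fars2, Lars2, Rars2, Sars2 and Yars2). After quantile normalization of the arrays the total called was 19, 23 and 22 in place of 25, 27 and 24, and after centring each array on its median it was 27, 29 and 26. Centring also moved the share of all called genes that were higher, from 58.5% to 83.0% in low arginine, from 52.7% to 75.9% in low leucine and from 59.4% to 79.0% in low lysine.

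Yars, the tyrosine enzyme, had the largest change in low arginine. Its log2 levels were 6.11 and 6.46 without antigen and 8.82, 8.98 and 8.96 with it. Every array with antigen lay above both without it, and the log2 fold change was 2.64 ± 0.16 (SE, limma adjusted p = 3.82e-11). Wars, the tryptophan enzyme, which interferon also induces, read 7.26 and 7.62 without antigen and 9.84, 9.85 and 10.16 with it, a log2 fold change of 2.51. Gars, the glycine enzyme, went from 8.23 and 8.44 to 10.49, 10.62 and 10.65, a log2 fold change of 2.25 ± 0.12 (limma adjusted p = 3.38e-12). Neither gene's groups overlapped. Vars, the valine enzyme, rose by 2.25 in the same comparison. In low leucine the 4 largest cytosolic changes were Wars (2.48), Yars (2.46), Eprs (2.35), which charges both glutamate and proline, and Lars (2.18), the leucine enzyme itself. In low lysine the largest was Iars, the isoleucine enzyme, which read 7.29, 7.47 and 7.75 without antigen and 10.13, 10.21 and 10.27 with it. These groups were widely separated, with a log2 fold change of 2.70 ± 0.12 (limma adjusted p = 1.6e-13). Gars (2.47), Yars (2.39) and Eprs (2.38) followed.

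The mitochondrial enzymes were uneven in their response to antigen. Rars2, the mitochondrial arginine enzyme, rose by 0.73 in low arginine, 1.24 in low leucine and 1.39 in low lysine, and Lars2, the mitochondrial leucine enzyme, by 1.03, 0.78 and 0.74. In low arginine Rars2 was not called with quantile-normalized arrays (0.26) or without low arginine, no-antigen replicate 1 (0.54). Yars2 rose by 1.07 in low leucine and 1.00 in low lysine. Tars2, the mitochondrial threonine enzyme, was called higher in all 3 media, but with quantile-normalized arrays in low lysine only, and its call in low arginine was lost without no-antigen replicate 2 (0.53, limma adjusted p = 0.065). Aars2, Ears2, Hars2, Pars2, Vars2 and Wars2 were called in none of the 3, with Wars2 at -0.17, -0.18 and -0.28 and Vars2 at -0.47 in low arginine. In these comparisons the number of mitotic genes called higher was 9, 9 and 8 of 9. Their mean log2 level was 5.43 to 5.88 on arrays without antigen, and in low arginine, leucine and lysine it was 9.12 to 9.34, 8.79 to 9.10 and 6.26 to 8.66 with antigen. Markers of other cells moved as well. In low arginine, leucine and lysine 5, 9 and 5 of 12 macrophage markers were lower with antigen, with list means of 6.72 to 7.04 on arrays without antigen and 5.85 to 6.46 with it. Mesothelial and stromal markers were lower in 3, 7 and 3 of 12, and those of CD8 T and NK cells in 1, 3 and 1 of 5, with 1 of 5 higher in low lysine. CD4 T cell markers were higher in 5, 3 and 3 of 7, with list means of 9.75 to 10.22 without antigen and 10.35 to 10.71 with it. The part of these lists in the antigen result was not tested. In bulk RNA, fewer cells of a type and less RNA per cell cannot be told apart.

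The promoters of the cytosolic members were searched because so many of these genes rose together. Of the 36 members 27 matched RefSeq's promoter table (GRCm38.p6), which spans 250 bases before to 50 after each start site. The motif TGATGNAA, the core of the element that C/EBP and ATF factors bind, was searched on both strands. It was found in 5 of 13 cytosolic members, Aars, Gars, Iars, Tars and Yars, and in 0 of 14 mitochondrial members, and 3.97% of all promoters in the table hold it. The stretches below run 5′ to 3′ on the gene's strand, from 120 bases before to 30 bases from the start site, with capitals where the motif or its reverse complement was matched. The promoters of Kars and Qars, which had no match, are shown because their levels went down in the comparisons that follow. Other cytosolic members without a match are not shown, among them Eprs and Sars, which were called higher in low leucine than in full medium.
Yars, chr4:129189783-129189932, plus strand: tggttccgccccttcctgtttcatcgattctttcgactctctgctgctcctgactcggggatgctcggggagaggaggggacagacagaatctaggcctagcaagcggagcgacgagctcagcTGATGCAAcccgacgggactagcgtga
Aars, chr8:111033722-111033871, plus strand: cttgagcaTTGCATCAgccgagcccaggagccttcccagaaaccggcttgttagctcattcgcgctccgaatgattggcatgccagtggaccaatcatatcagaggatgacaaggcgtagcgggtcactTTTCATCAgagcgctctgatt
Gars, chr6:55037881-55038030, plus strand: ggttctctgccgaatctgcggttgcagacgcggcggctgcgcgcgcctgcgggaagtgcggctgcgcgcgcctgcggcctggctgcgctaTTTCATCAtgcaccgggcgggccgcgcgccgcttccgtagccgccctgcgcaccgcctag
Iars, chr13:49682010-49682159, plus strand: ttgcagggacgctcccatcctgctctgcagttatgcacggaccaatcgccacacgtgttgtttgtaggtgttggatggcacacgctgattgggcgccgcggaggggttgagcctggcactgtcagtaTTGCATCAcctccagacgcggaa
Tars, chr15:11399629-11399778, minus strand: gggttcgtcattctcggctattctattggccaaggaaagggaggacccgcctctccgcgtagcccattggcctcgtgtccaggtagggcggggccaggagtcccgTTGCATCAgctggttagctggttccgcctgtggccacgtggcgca
Kars, chr8:112011325-112011474, minus strand: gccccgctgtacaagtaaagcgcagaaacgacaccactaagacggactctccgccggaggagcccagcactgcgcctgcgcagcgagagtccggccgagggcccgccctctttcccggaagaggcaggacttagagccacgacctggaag
Qars, chr9:108507885-108508034, plus strand: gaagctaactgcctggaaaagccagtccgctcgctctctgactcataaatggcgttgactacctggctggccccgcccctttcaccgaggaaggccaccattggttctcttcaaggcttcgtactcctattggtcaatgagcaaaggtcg

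Each of the 5 genes held a match within 30 bases of the start site. Counted from the start site, the match of Yars covered bases 4 to 11, that of Iars 8 to 15, that of Tars -15 to -8 and that of Gars -30 to -23. Aars held a match at -112 to -105 and another at 10 to 17. In the antigen comparison in low arginine the 4 cytosolic members with a match that were measured at 48 h rose by a median of 2.22 (range 1.72 to 2.64), and 8 without a match had a median of 1.47 (range 0.31 to 1.95). The 7 without an entry in the promoter table (Cars, Hars, Lars, Nars, Rars, Vars and Wars) had a median of 1.79, so members without a known match also rose. For antigen in low leucine the medians were 2.09 with a match and 1.72 without, and in low lysine 2.43 and 1.51. At 72 h, where Aars was measured and Tars was not, they were close, at 1.04 and 0.98. The E-box CACGTG was found in 4 of 13 cytosolic and 1 of 14 mitochondrial members, against 8.09% of all genes in the promoter table. The STAT-type motif TTCNNNGAA was found in 2 of 13 and 1 of 14, against 9.55% of those genes. A match is a stretch of letters, not a measured site.

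Among cultures with antigen at 48 h, the number of synthetases called in low arginine, leucine or lysine medium was 4, 3 and 4 in the fit of all groups, and 14, 7 and 0 when each low medium was fitted with full medium alone. All genes called in those smaller fits numbered 2472, 1654 and 968, in place of 1036, 603 and 1936. These 3 comparisons and that of pretreated macrophages share the same 3 full-medium control arrays, and the heatmap of changes shows them side by side. Those control arrays share no run of submitter IDs with the low-medium arrays, so run and medium cannot be told apart in the 3 comparisons. In low arginine 1 of 19 cytosolic members was called higher and 2 lower (median 0.19), with 1.51% of all genes higher and 3.17% lower. Of 16 mitochondrial members 1 was lower (median -0.19, with 15 below 0). In low leucine 3 cytosolic members were higher and 0 lower (median 0.22) against 1.15% and 1.56% of all genes. No mitochondrial member was called by limma (median -0.09), with 3 at an unadjusted p below 0.05. In low lysine 2 cytosolic members were higher and 2 lower (median 0.06) against 2.49% and 6.24%. No mitochondrial member was called there by limma, with 2 at an unadjusted p below 0.05, although all 16 had negative values, from -0.45 to -0.07. These medians moved with the scaling. After quantile normalization the cytosolic medians were 0.25, 0.27 and 0.29 in low arginine, leucine and lysine. The mitochondrial medians were then -0.11, -0.02 and -0.05. Centred arrays gave -0.01 (cytosolic) and -0.30 (mitochondrial) in low lysine. Counting members of either compartment and direction whose 2 groups of arrays did not overlap gave 24 of 35 in low arginine, 15 in low leucine, 12 in low lysine and 20 on pretreated macrophages, where 27.6%, 23.3%, 29.2% and 25.7% of all genes were so separated.

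**Figure D2:**
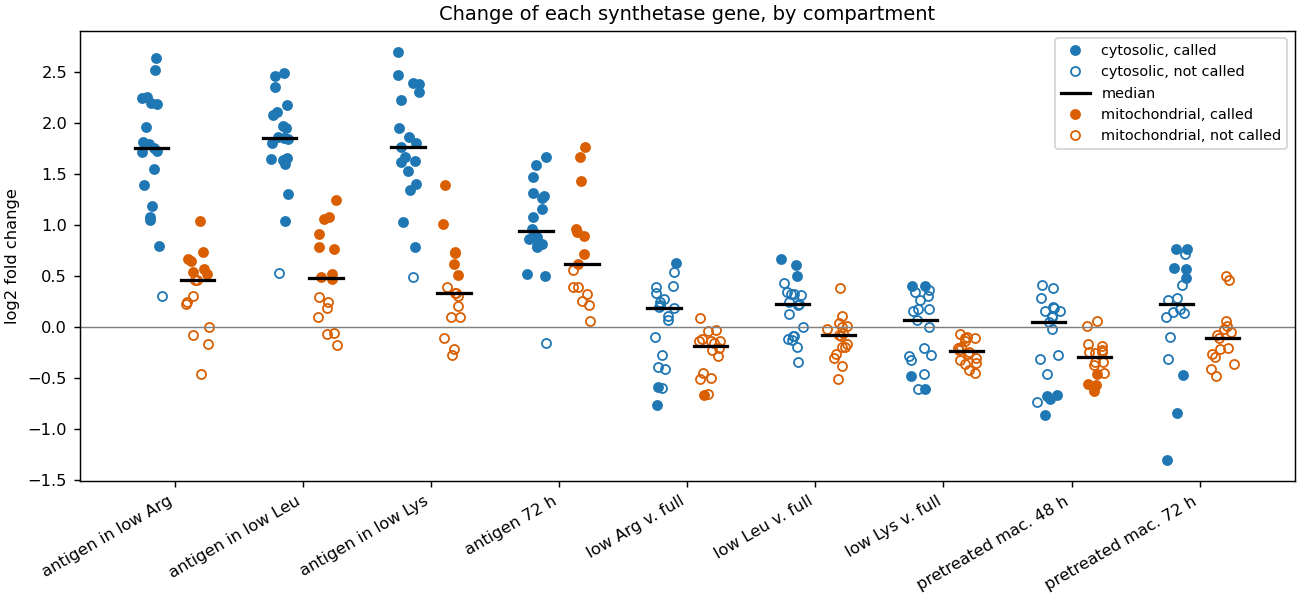
Log2 fold change of every member in 9 comparisons, cytosolic and mitochondrial members side by side. Filled points were called, and the black bar is the median. In the antigen comparisons the cytosolic median lay between 0.94 and 1.85 and the mitochondrial median between 0.33 and 0.61, whereas neither was further than 0.30 from 0 among cultures with antigen.

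**Figure D3:**
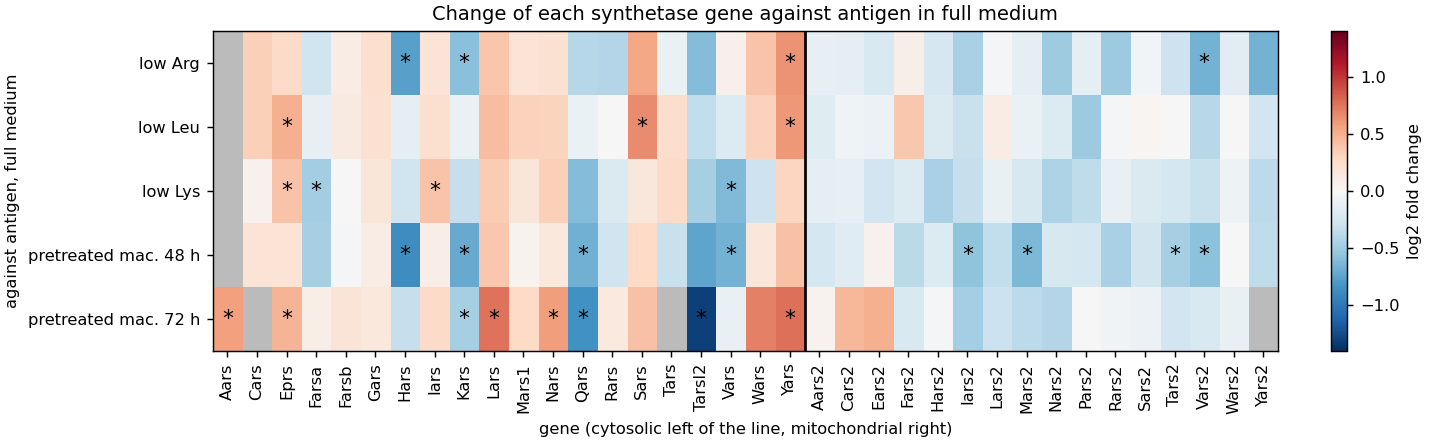
Log2 fold change of each member against antigen in full medium, for low arginine, leucine and lysine and for pretreated macrophages at 48 h and 72 h. Stars mark called members, grey marks members not measured, and the line separates cytosolic from mitochondrial members. Yars and Lars were above 0 in all 5 rows, and Hars, Kars, Qars and Tarsl2 were below 0 in all 5.

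The CD4 T cell list was higher in 3 of 7 markers in low arginine and in 2 of 7 in low leucine, with list means of 10.61 to 10.71 and 10.61 to 10.66 against 10.23 to 10.32 in full medium. Its part in the values was not tested.

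The histidine and lysine enzymes of the cytosol were lower in low arginine than in full medium, and the tyrosine enzyme was higher. Hars read 9.38, 9.43 and 9.32 in full medium and 8.49, 8.64 and 8.72 in low arginine. The groups were far apart, and Hars fell to 0.589 of its level (log2 fold change -0.76 ± 0.17, limma adjusted p = 0.00713). Kars went from 9.96, 10.07 and 10.05 to 9.33, 9.51 and 9.48, again without overlap (-0.59 ± 0.13, limma adjusted p = 0.00824). Yars went from 8.15, 8.40 and 8.34 to 8.82, 8.98 and 8.96, a rise of 1.54-fold (0.62 ± 0.15, limma adjusted p = 0.013), also without overlap. Vars2, the mitochondrial valine enzyme, read 5.54, 5.58 and 5.48 in low arginine, below every full-medium array (-0.67 ± 0.17, limma adjusted p = 0.027). Hars was called in each of the 6 fits that left out 1 array, Kars in 5 (adjusted p = 0.057 without low arginine replicate 1), Yars in 3 and Vars2 in 1. The count of 4 called members fell to 2 without full-medium replicate 1 and without any 1 of the low arginine arrays. Quantile normalization gave 4 higher (Eprs, Lars, Sars and Yars) and 2 lower (Hars and Kars), and the share of all called genes that were higher then was 48.8% in place of 32.2%.

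The serine, tyrosine and glutamate-proline enzymes were higher in low leucine than in full medium. Sars read 10.06, 10.26 and 10.11 in full medium and 10.91, 10.77 and 10.76 in low leucine, 1.59-fold higher (0.67 ± 0.18, limma adjusted p = 0.0476). Yars read 8.94, 9.02 and 8.77 in low leucine, 1.53-fold higher (0.61 ± 0.15, limma adjusted p = 0.0219). Eprs went from 9.97, 9.95 and 10.08 to 10.46, 10.53 and 10.49, 1.41-fold higher (limma adjusted p = 0.0313). The 3 genes' groups did not overlap, but the adjusted p-values lay near the threshold. Sars and Eprs were called in 0 of the 6 fits that left out 1 array and Yars in 2. The count of 3 fell to 0 without full-medium replicate 1 or 3 or low leucine replicate 1 or 2, and to 1 without full-medium replicate 2 or low leucine replicate 3. With centred arrays Yars alone was called. Quantile normalization moved the share of all called genes that were higher from 42.5% to 52.6%.

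Small differences in both directions separated low lysine from full medium. Eprs (0.40 ± 0.13, limma adjusted p = 0.0462) and Iars (0.40 ± 0.12, adjusted p = 0.0463) were higher, and Vars (-0.61 ± 0.19, adjusted p = 0.0443) and Farsa, the alpha subunit of the phenylalanine enzyme (-0.48 ± 0.15, adjusted p = 0.0431), were lower. Iars read 9.74, 9.83 and 9.84 in full medium and 10.13, 10.21 and 10.27 in low lysine. Vars read 8.54, 8.74 and 8.58 against 7.65, 8.11 and 8.27. Neither pair of groups overlapped. The 4 calls went to 0 without any 1 of the full-medium arrays or low lysine replicate 1, and to 1 without low lysine replicate 2, and without low lysine replicate 3 there were 5, all lower. Quantile normalization called 5 members higher (Eprs, Iars, Lars, Nars and Yars) and 0 lower, with 45.2% of all called genes higher in place of 28.6%. Centred arrays gave 3 lower (Farsa, Qars and Vars) and 0 higher, with 18.4% of all called genes higher. The 3 low lysine arrays also differed in mitotic genes, whose mean log2 level was 6.26, 7.55 and 8.66 on them against 9.47 to 9.55 in full medium, and in B cell markers, at 6.76, 6.09 and 5.57. The part of either in these values was not tested.

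**Figure D4:**
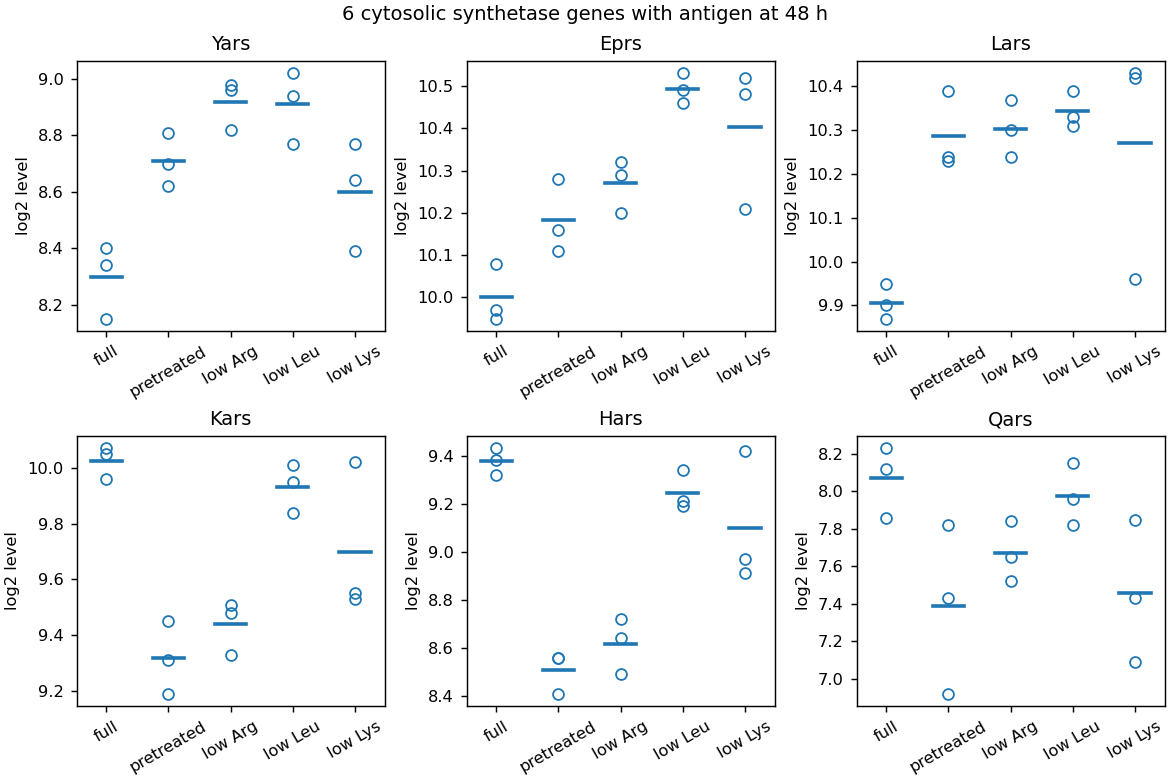
Log2 level of 6 cytosolic synthetases on each of the 15 arrays with antigen at 48 h, by medium or pretreatment; points are arrays and bars are group means. Hars and Kars were lowest in low arginine and on pretreated macrophages, and Yars was lowest in full medium.

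Macrophages pretreated with IL-4 and IL-10 lowered 4 cytosolic and 4 mitochondrial members at 48 h and raised none. The cytosolic median was 0.04 and the mitochondrial median -0.30, with 14 of 16 mitochondrial values below 0, while 5.93% of all genes were lower and 2.71% higher. Hars read 8.56, 8.41 and 8.56, against at least 9.32 on each untreated array, and fell to 0.547 of its level (-0.87 ± 0.17, limma adjusted p = 0.00159). Kars read 9.31, 9.19 and 9.45, which put it at 0.612 of its level (-0.71 ± 0.13, limma adjusted p = 0.0011). Both stood below every untreated array. Qars (-0.68) and Vars (-0.66) were lower too, as were Mars2, the mitochondrial methionine enzyme (-0.63), Vars2 (-0.57), Iars2 (-0.57) and Tars2 (-0.47). Hars and Kars were called in each of the 6 fits without 1 array, whereas Qars, Mars2 and Vars2 were called in 2, Iars2 in 3, Vars in 1 and Tars2 in 0. The 8 calls went to 4 without untreated replicate 1 or 2, to 2 without untreated replicate 3 or pretreated replicate 2, and to 3 without pretreated replicate 1. With quantile normalization Eprs, Lars and Yars were called higher and Hars and Kars lower, and 49.2% of all called genes were higher in place of 31.3%. The cytosolic median was then 0.14 and the mitochondrial median -0.19.

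Markers of other cells moved with this pretreatment at 48 h. Of 12 macrophage markers 4 were higher, with a list mean of 6.64 to 7.12 on pretreated arrays against 6.28 to 6.40, and 4 of 6 markers of alternatively activated macrophages were higher, at 6.61 to 7.18 against 4.89 to 5.10. All 9 mitotic genes were lower, with list means from 6.74 to 8.45. The CD4 T cell list mean was 10.23 to 10.47 on pretreated arrays and 10.23 to 10.32 on untreated ones. The part of these lists in the synthetase values was not tested.

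At 72 h, on the other array type, antigen in full medium raised 17 of 18 cytosolic members (median 0.94) and 8 of 15 mitochondrial ones (median 0.61), and 20.7% of all genes were called higher and 17.4% lower. The largest cytosolic changes were Vars (1.66 ± 0.24), Mars1, the methionine enzyme (1.59 ± 0.12), Farsb, the beta subunit of the phenylalanine enzyme (1.47 ± 0.20) and Gars (1.31 ± 0.09). Mars1 read 8.03, 8.22 and 7.97 without antigen and 9.60, 9.65 and 9.74 with it, with no overlap (limma adjusted p = 1.83e-06). The mitochondrial Nars2 and Tars2, for asparagine and threonine, changed as much. Tars2 went from 5.32, 5.73 and 5.90 to 7.27, 7.42 and 7.26 (1.67 ± 0.20, limma adjusted p = 5.07e-05). Nars2 rose by 1.76 ± 0.20 on its brighter probe set but by 0.05 on the other, which was dim. Ears2 likewise rose by 0.96 on the probe set used and by -0.11, -0.12 and 0.12 on the others. Fars2 (mean log2 level 2.84) and Mars2 (3.13) were among the dimmest genes of this array type.

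The exception among cytosolic members at 72 h was Rars, the arginine enzyme, at 10.03, 10.11 and 9.81 without antigen and 9.60, 10.26 and 9.60 with it (-0.16 ± 0.17, limma adjusted p = 0.513). Its groups overlapped, without antigen replicate 2 it was called lower (-0.38, adjusted p = 0.0269), and with centred arrays it stood at 0.35 and was not called. Centring moved the median of all genes from 0.02 to 0.53 and called 32 of 33 members higher, with 86.0% of all called genes higher in place of 54.3%, so at 72 h the number of members that rose depends on the scaling. Hars was called in 2 and Lars2 in 4 of the 6 fits without 1 array, and every other called member in all 6. The arrays without antigen also carried markers of other cells. All 12 mesothelial and stromal markers were lower with antigen, with list means of 10.48, 10.29 and 10.13 without it and 4.37 to 4.74 with it, and macrophage markers stood at 5.06, 7.09 and 6.26 against 3.63 to 3.70. At 48 h the mesothelial and stromal list mean was 5.34 to 6.39, but levels on the 2 array types are not on the same scale. At 72 h 5 of 7 CD4 T cell markers were higher with antigen, with a group mean of 10.18 against 9.16 without it. All 9 mitotic genes were higher as well, with a group mean of 10.05 against 6.70. The part of these lists in the 72 h synthetase values was not tested.

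Pretreated macrophages at 72 h raised 5 cytosolic synthetases and lowered 3 (median 0.22) with 3.78% of all genes higher and 5.91% lower. The groups did not overlap for 20 of 33 members and 26.5% of all genes. Of 15 mitochondrial members limma called none (median -0.11), with 3 at an unadjusted p below 0.05. Lars read 10.11, 10.30 and 9.94 on untreated and 10.86, 10.89 and 10.89 on pretreated macrophages (0.76 ± 0.11, limma adjusted p = 0.00284). Yars went from 8.09, 7.98 and 8.05 to 8.86, 8.76 and 8.80 (0.77 ± 0.16, limma adjusted p = 0.014). Both groups were tight and did not overlap. Nars (0.58), Aars (0.57), whose promoter held 2 motif matches, and Eprs (0.47) also rose. Tarsl2, the threonine paralog, had the largest change, from 6.73, 6.93 and 7.16 to 5.57, 5.66 and 5.66 (-1.31 ± 0.21, limma adjusted p = 0.00437). Qars fell by 0.85 and Kars by 0.47, as each had at 48 h, although 2 dimmer probe sets of Qars moved less, at -0.24 and -0.27. The count of 8 fell to 2 without untreated replicate 3 or pretreated replicate 3. Lars and Tarsl2 were called in each of the 6 fits without 1 array, Aars, Qars and Yars in 4, Eprs and Nars in 3 and Kars in 1. With centred arrays Lars and Yars were higher and Kars, Qars and Tarsl2 lower. Pretreated replicate 1 stood apart in mesothelial and stromal markers, at 6.48 against 4.68 and 4.81, and without it 7 members were called. Mitotic genes differed among all the pretreated arrays, at 7.51 (replicate 1), 9.43 and 8.46, and each lay below the untreated arrays, at 9.89 to 10.28. The part of either list in these synthetase values was not tested.

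Whether an enzyme for a limited amino acid was called in the medium low in it depended on which arrays entered the fit. In the fit of all groups none was. Rars read 10.24, 10.16 and 10.28 in full medium and 9.86, 9.88 and 9.70 in low arginine. These arrays did not overlap, and the change of -0.41 ± 0.18 did not pass (limma adjusted p = 0.236), but it passed when low arginine and full medium were fitted alone (adjusted p = 0.00426). Rars2 read 8.71, 8.64 and 8.67 against 8.04, 8.21 and 8.23, also without overlap (-0.51 ± 0.20, limma adjusted p = 0.169, and 0.00409 fitted alone). In low leucine the difference of Rars was -0.01 and of Rars2 -0.02, and in low lysine they were -0.21 and -0.11. None of these was called. Lars, from 9.87, 9.95 and 9.90, read 10.39, 10.33 and 10.31 in low leucine (0.43 ± 0.16, limma adjusted p = 0.199, and 0.00109 fitted alone), and its differences were 0.39 in low arginine, 0.36 in low lysine and 0.38 on pretreated macrophages, none called in the fit of all groups, whereas fitted alone it was called in low arginine (adjusted p = 0.0031) and on pretreated macrophages (0.0292). Lars2 differed by 0.11 in low leucine, -0.03 in low arginine, -0.10 in low lysine and -0.34 on pretreated macrophages. Kars read 9.53, 9.55 and 10.02 in low lysine, the last array at the full-medium level (-0.33 ± 0.13, limma adjusted p = 0.12), without which it was called (-0.49, adjusted p = 0.0117), and -0.09 was its difference in low leucine. Of these 5 genes Kars alone was called against full medium at 48 h in the fit of all groups, in low arginine and on pretreated macrophages. On pretreated macrophages Rars stood at -0.28 and Rars2 at -0.45 (called when fitted alone, adjusted p = 0.044), and at 72 h Rars stood at 0.13, Rars2 at -0.05 and Lars2 at -0.30, none of which was called.

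**Figure D5:**
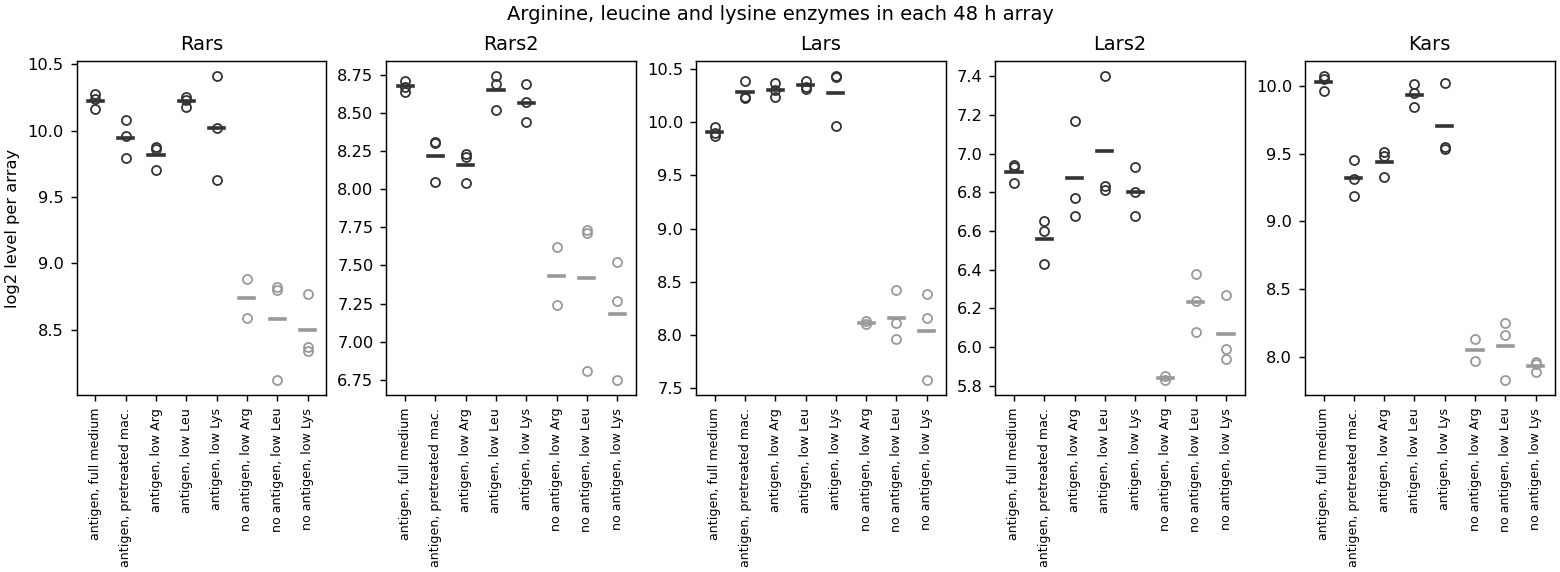
Log2 level of Rars, Rars2, Lars, Lars2 and Kars on each 48 h array, dark with antigen and grey without, with bars at group means and a scale for each gene. Rars read 9.70 to 9.88 and Rars2 8.04 to 8.23 in low arginine with antigen, below their full-medium arrays. Every array with antigen lay above those without it for all 5 genes.

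Direct comparisons of the low media separated few members. Between low arginine and low leucine with antigen limma called none of the 35, with 6 at an unadjusted p below 0.05 and 29 of 35 values negative, against 0.712% of all genes called. Rars stood at -0.41 (adjusted p = 0.444), Rars2 at -0.49 (0.378) and Kars at -0.50 (0.0869). Same-numbered arrays of these groups deviated together, and with the replicate number as a block 2 members were called, Kars among them (limma adjusted p = 0.0471). With only these groups in the fit 4 were called lower, Hars, Kars (adjusted p = 0.00847), Rars (0.0129) and Rars2 (0.0219). Quantile normalization called 1 member lower, Kars. Between low arginine and low lysine, Wars (0.68 ± 0.16, limma adjusted p = 0.0145) and Vars (0.68 ± 0.19, adjusted p = 0.0471) were higher in low arginine, with 2.65% of all genes higher and 0.577% lower. Wars read 9.84, 9.85 and 10.16 in low arginine, 9.92, 9.75 and 9.94 in low leucine and 9.30, 9.11 and 9.39 in low lysine, where every array was below all others with antigen. Between low leucine and low lysine Wars alone was called (0.60 ± 0.16, limma adjusted p = 0.0472), with 1.59% of all genes higher and 0.289% lower.

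Wars between low arginine and low lysine was called in 4 of the 6 fits without 1 array, Vars in 1, and Wars between low leucine and low lysine in 1. The 2 calls between low arginine and low lysine went to 0 or 1 without any 1 of the low arginine arrays or low lysine replicate 1 or 2. With only the compared groups in the fit, neither pair had a called member, whereas centred arrays kept Wars in both. The call between low leucine and low lysine went to 0 without any array but low lysine replicate 3, without which 4 members were called. Quantile normalization removed both Wars calls and in the first comparison called Hars, Kars and Tars lower in low arginine, with 64.1% of all called genes higher in place of 82.1%, and 64.7% in place of 84.6% in the second. Of 8 interferon genes 6 were lower in low lysine than in full medium (median -0.67), a comparison in which Wars was not called. With antigen, their mean log2 level was 7.80 to 8.21 on low arginine arrays, 7.86 to 7.94 in low leucine and 7.30 to 7.85 in low lysine. The part of interferon in the Wars values was not tested.

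Without antigen the 3 low media did not separate the synthetases. Limma called 0 of 35 members in each pair of media, with 3, 2 and 2 at an unadjusted p below 0.05 for arginine over leucine, arginine over lysine and leucine over lysine. Of all genes 0, 1 and 2 were called, the latter being 0.00451% and 0.00902%. A moderated F test in limma, which asked whether the antigen effect itself differed between the low media, called 0 of 35 members, with 4 at an unadjusted p below 0.05, and 33 of all genes (0.149%). The smallest p was that of Iars (unadjusted 0.00133, adjusted 0.164), whose antigen effect was smaller by 0.73 in low leucine than in low lysine. Wars (adjusted p = 0.369), Fars2 (0.418) and Hars (0.51) followed.

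Other genes of the same pathways gave a scale for these changes. Among 18 GCN2-ATF4 pathway genes that are no synthetases, 12 were higher and 0 lower in low arginine (median 0.94; Nupr1, a stress regulator, 3.06 and Cth, which makes cysteine, 2.39), 9 in low leucine (median 0.60; Nupr1 2.07, Ddit3 1.96), 10 in low lysine (median 0.61; Cth 1.85, Sesn2 1.34) and 11 on pretreated macrophages at 48 h (median 0.92; Cth 2.44, Nupr1 2.15). At 72 h 13 of 17 were higher on pretreated macrophages (median 1.42; Nupr1 3.76, Cth 2.97). The cytosolic synthetase medians in the same 5 comparisons were 0.19, 0.22, 0.06, 0.04 and 0.22. Cytosolic members with a TGATGNAA match had medians of 0.21, 0.23, 0.28, 0.10 and 0.42, and those with a promoter and no match -0.09, 0.02, -0.16, -0.24 and 0.14. Those without an entry in the promoter table, whose motifs are not known, had medians of 0.21, 0.31, -0.20, 0.15 and 0.36. The 3 groups hold 4 genes, 8 genes, and 7 at 48 h or 6 at 72 h, and were not tested against each other.

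The scaffolds of the synthetase complex rose with antigen. Aimp1 rose by 1.49, 1.76 and 1.55 and Eef1e1 by 2.04, 2.52 and 2.71 in low arginine, leucine and lysine, and neither was called by limma in the 5 comparisons against antigen in full medium. Of 4 mitochondrial elongation factors, Gfm1 (-0.98) and Tsfm (-1.03) were lower on pretreated macrophages at 48 h and also in low arginine (limma adjusted p = 0.00082, and -0.78 for Tsfm), and Tsfm in low lysine (-0.87), while none was called in low leucine. At 72 h Gfm1 (-0.95) and Tufm (-0.60) were lower on pretreated macrophages. The list of 6 cytosolic elongation factors also counted the scaffold Eef1e1. From that list Eef2 rose by 0.29 in low arginine and 0.30 in low leucine, and Eef1b2 by 0.36 in low leucine. Among 4 factors that edit or modify charged transfer RNA, Dtd1 was lower on pretreated macrophages at 48 h (-0.66) and Pstk at 72 h (-0.78). None of the 4 amidotransferase and formyltransferase genes was called in those 5 comparisons, and 1, 3 and 2 of them rose with antigen in low arginine, leucine and lysine and 3 at 72 h (Qrsl1 1.60, Gatb 1.15).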

How the data were processed

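RNA (100 ng per array) was measured on 23 MoGene-2_0-st and 9 HT_MG-430_PM arrays. Each probe set's deposited value is on a log2 scale, and the submitters' processing notes name RMA and Affymetrix Expression Console 1.1; probe filters and which arrays were normalized together are not given in the sources used here. Array medians were 5.44 to 5.75 at 48 h and 3.87 to 4.04 at 72 h, and the number of arrays limits the precision. The platform annotation gave 1 gene for 23521, several for 1814 and none for 16010 of the 41345 probe sets at 48 h, and for 28898, 551 and 15588 of 45037 at 72 h. Probe sets naming 1 gene were used, the one with the highest mean per gene. Each platform was fitted whole in limma 3.58.1 (R 4.3.3; lmFit, eBayes with an intensity trend), two-sided, with Benjamini-Hochberg adjustment within each of 15 comparisons and 1 F test, and the script was tested on simulated data. Tables, motifs and plots were made in Python 3.11.15 (pandas 2.3.3, numpy 2.4.6, matplotlib 3.10.9).

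The members and lists were chosen with earlier results of these data known. Members named are the arginine, leucine and lysine enzymes, the 4 cytosolic and 2 mitochondrial called members with the largest changes among those whose groups do not overlap, and the largest opposite change; others named were chosen after their values were seen. Replicate numbers paired arrays in 2 comparisons, by correlations of deviations of 0.26, 0.23 and 0.16 (pretreated macrophages at 72 h) and 0.35, 0.29 and 0.39 (low arginine over low leucine). Alternatives were other scalings, probe set means, a filter on low values, no trend, smaller fits, blocks and leaving out each array.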

Additional observations from a re-analysis of the deposited data

How the results depend on the processing

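Of the counts of called members, 187 alternative values stayed within 1.5 times the count reported and 59 did not. No called log2 fold change of a named member changed sign. In some comparisons the balance of higher and lower calls did turn with the scaling, as calls were lost and other members were called. Quantile normalization turned 2 higher and 0 lower into 0 and 3 for low arginine over low lysine, 2 and 2 into 5 and 0 for low lysine, and 0 and 8 into 3 and 2 for pretreated macrophages at 48 h, and centred arrays turned low lysine into 0 and 3. Quantile normalization gave 5 for pretreated macrophages at 48 h, 1 for low arginine over low leucine, 0 for low leucine over low lysine and 1 for the F test. Centred arrays gave 1 for low leucine, 1 for low arginine over low lysine and 5 for pretreated macrophages at 72 h. Without the intensity trend low leucine gave 1, low lysine 2, low arginine over low lysine 1 and low leucine over low lysine 0. With the compared groups fitted alone the counts were 14 for low arginine, 7 for low leucine, 0 for low lysine, 4 for low arginine over low leucine and 0 for each other pair with antigen; adding the replicate block gave 16, 7, 0, 6 and 0, and 5 for pretreated macrophages at 48 h. This last setting, and submitter ID runs as a random block (correlation 0.0174; counts 4, 3 and 4), were chosen after seeing the data. In the fit of all groups the replicate block gave 2 for low arginine over low leucine and 9 for pretreated macrophages at 72 h, where the numbers pair the arrays. Elsewhere a shared replicate number was not taken as a pairing, and the block gave 10 for pretreated macrophages at 48 h and 4, 3 and 5 for low arginine, leucine and lysine. Pretreated and untreated arrays at 48 h did share submitter ID runs, with correlations of deviations of -0.09, 0.43 and 0.18. Leaving out 1 array gave 2 to 9 for pretreated macrophages at 48 h and 2 to 8 at 72 h. It gave 2 to 4 for low arginine, 0 to 1 for low leucine and 0 to 5 for low lysine. It gave 0 to 0, 0 to 2 and 0 to 4 for low arginine over low leucine, low arginine over low lysine and low leucine over low lysine with antigen, 0 to 0, 0 to 0 and 0 to 1 without it, and 0 to 0 for the F test. For antigen it gave 20 to 24, 25 to 27 and 22 to 26 in low arginine, leucine and lysine and 23 to 25 at 72 h. Where a count moved, the cause was not tested.

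The full-medium arrays at 48 h share no run of submitter IDs with the low-medium arrays, so run and medium cannot be told apart in those 3 comparisons.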
